A study of Mus musculus with 18 samples.

Results

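The genes of the bromodomain and extra-terminal (BET) family described here are Brdt, Brd2 and Brd3. They are 3 of the 42250 genes that were compared over all 18 libraries, each listed with a single symbol. Apart from Brd2, which had another length at P14, these genes also had the same length in all 18 libraries. The 3 BET genes were chosen by symbol, with earlier results of these data known, and each was found in every library. The RNA came from male C57BL/6J mice that were heterozygous (Zfp541+/-, called Het) or knockout (Zfp541-/-, called KO) for Zfp541, a gene for a zinc-finger protein of male germ cells. Poly(A) RNA was taken at postnatal day 14 (P14) and day 18 (P18) from testis, and at P18 also from isolated spermatocytes. This gave 6 groups of 3 libraries: P14 testis Het and KO, P18 testis Het and KO, and P18 spermatocytes Het and KO. No wild-type library was used here, so each KO was set against Het mice that carry 1 mutant allele. The labels call the 3 libraries of a group biological replicates and do not say whether they came from separate animals, so the p-values measure the spread between these libraries. How the spermatocytes were isolated is not given in the sources used here.

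BET proteins carry paired bromodomains that bind acetylated lysines, mainly on the tails of histones H3 and H4, and an extra-terminal domain that recruits other chromatin and transcription proteins. Brd2 and Brd3 are expressed in most tissues. Brdt is the testis form, made in male germ cells from meiosis onward, and is required for male fertility and for the compaction of chromatin in spermatids. The question asked of each comparison was whether the germ-cell member and its broadly expressed paralogues moved together when Zfp541 was absent.

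Brdt (ENSMUSG00000029279.15) lies on chromosome 5 at 107331159 to 107387058, plus strand, GRCm38. Brd2 (ENSMUSG00000024335.20) lies on chromosome 17 at 34112023 to 34122634, minus strand. Brd3 (ENSMUSG00000026918.16) lies on chromosome 2 at 27445579 to 27507662, minus strand. The sequence upstream of each start is shown because these paralogues differ in where they are expressed. The RefSeq promoter table (GRCm38.p6) held all 3 genes. Each line gives the longest stretch, within the 250 bases before the RefSeq start, that is outside annotated exons, written 5′ to 3′ along the gene with CpG dinucleotides in capitals. The Brdt stretch is chr5:107330944-107331158 on the plus strand, the Brd2 stretch is chr17:34122635-34122857 on the minus strand and is the farthest upstream of 3 RefSeq windows, and the Brd3 stretch is chr2:27475399-27475576 on the minus strand. The Brd3 stretch lies inside the Brd3 span given above, whose 5′ end is at 27507662. It is thus upstream of the RefSeq start but not of the whole annotated gene.
Brdt: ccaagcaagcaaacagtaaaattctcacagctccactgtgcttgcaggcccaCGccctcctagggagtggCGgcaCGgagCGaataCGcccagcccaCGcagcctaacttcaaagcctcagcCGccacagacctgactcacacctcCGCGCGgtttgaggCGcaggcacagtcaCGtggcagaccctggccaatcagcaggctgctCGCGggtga
Brd2: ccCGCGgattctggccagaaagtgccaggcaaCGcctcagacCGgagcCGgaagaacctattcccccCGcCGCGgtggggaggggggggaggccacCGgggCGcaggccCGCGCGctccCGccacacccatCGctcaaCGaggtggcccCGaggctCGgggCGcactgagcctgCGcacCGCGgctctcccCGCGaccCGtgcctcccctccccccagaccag
Brd3: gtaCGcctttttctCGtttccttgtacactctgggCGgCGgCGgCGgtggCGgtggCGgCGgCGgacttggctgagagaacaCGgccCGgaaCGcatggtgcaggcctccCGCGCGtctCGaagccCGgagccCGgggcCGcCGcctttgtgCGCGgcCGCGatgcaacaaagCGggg

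Brdt had the fewest CpG dinucleotides upstream of its start and Brd3 the most. In the 250 bases before the start there were 16 in Brdt, 27 in Brd2 and 37 in Brd3, against a median of 6 over 27025 promoters, and 74.46% of promoters had fewer than Brdt. In the printed stretches the G and C content was 62.3% for Brdt, 75.3% for Brd2 and 70.8% for Brd3. The same 250 bases were searched on both strands for 6 short motifs, none of which was found at overlapping places in these windows. The E-box CACGTG was in the Brdt window once, 78 bases before the start, and in 6.04% of promoters. The motif CCAAT was there once, 61 bases before the start, and in 34.5% of promoters. The core AACNG of sites bound by MYB proteins was there 2 times, and in 74.2% of promoters. The GC box GGGCGG was in the Brd3 window once, and in 32.96% of promoters. The cAMP response element TGACGTCA, in 1.60% of promoters, and the TATA box TATAAA, in 12.98%, were in none of the 3 windows.

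Depth was read back from the steps of the deposited values, in megareads: the P14 totals lay between 17.96 and 21.12, those of P18 testis between 12.81 and 16.95, and those of spermatocytes between 9.26 and 18.31. Levels are deposited RPKM (P14 testis and spermatocytes) or FPKM (P18 testis) values, reads or fragments per kilobase of exon and per megaread, rescaled within each set of 6 libraries. A gene was called where the limma p-value, adjusted by Benjamini-Hochberg over all genes tested, was under 0.05. Zfp541 was lower in all KO libraries of a set than in all Het libraries: 3.15 to 5.05 against 7.52 to 9.23 at P14, 9.22 to 11.3 against 21.5 to 29.8 in P18 testis, and 11.5 to 13.4 against 32.2 to 57.1 in spermatocytes. Its log2 difference was -1.03 at P14 (adjusted p = 0.0905), -1.23 in P18 testis and -1.75 in spermatocytes. The labels do not say which exons the KO allele lacks, so reads that remained do not bear on the protein. Of 15 pachytene spermatocyte markers, 14 of 14 tested were called lower in KO in each P18 set, where 17.0% (testis) and 25.6% (spermatocytes) of all genes were. Of the spermatogonia markers, 5 of 13 were called higher and 1 lower in P18 testis (median log2 difference 0.34), and 6 of 14 higher and 1 lower in spermatocytes (median 0.55), where 6.59% and 9.32% of all genes were called higher. Of the macrophage markers, 7 of 9 were called higher in P18 testis (median 0.49). Sertoli markers, 15 in all, summed in P18 testis to 1258 to 1583 in Het and 1680 to 1753 in KO. There 3 were called higher in KO and 0 lower, with log2 differences from 0.21 to 0.47 (median 0.29). Of 9 Leydig markers, 2 were called higher and 0 lower in P18 testis (median 0.32), and 2 of 3 tested were called lower in spermatocytes. In isolated spermatocytes the Sertoli sum was 49.1 to 85.2 in Het and 30.6 to 66.0 in KO, with 0 of 14 called (median -0.44). No Sertoli marker was at 0 there in every library of a group. Without rescaling, the median difference of all genes moved from 0.04 to 0.12 in P18 testis and from -0.05 to 0.17 in spermatocytes, and the share of calls that were higher in KO moved from 28% to 46.4% and from 26.7% to 54.3%. In bulk RNA, fewer cells that express a gene and less RNA of it per cell cannot be told apart.

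Brdt RNA was lower in KO at P18, to 56.0% of Het in whole testis and 53.3% of Het in spermatocytes, while Brd2 and Brd3 were not called in any of the 3 comparisons of KO with Het. At P18 Brdt was called lower in both fractions. At P14 it was lower on average, but the libraries overlapped and it was not called.

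In P14 testis, Brdt levels were 17.5, 16.7 and 19.99 in Het replicates 1 to 3 and 11.01, 12.8 and 17.1 in KO. KO replicate 3 lay within the Het range and the other KO libraries lay below it; Het and KO did not overlap for 15.3% of all genes tested. The log2 difference was -0.41 ± 0.16 (SE), with an adjusted p of 0.540 by limma. Of all genes tested in this comparison 0.186% were called, 0.175% as lower, and none of the 3 BET genes was among them. Each Brdt value at P14 rested on 1191 to 1971 reads.

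In P18 testis, Brdt levels were 44.7, 35.5 and 32.9 in Het and 21.0, 20.8 and 21.5 in KO. The groups did not overlap, which was also true of 48.3% of all genes tested there. The Het libraries spanned 32.9 to 44.7, while the KO libraries lay within 1 unit of each other. The log2 difference was -0.81 ± 0.11 (SE), with an adjusted p of 0.00682 by limma. Of all genes tested 23.6% were called and 17.0% were called lower, and 1 of the 3 BET genes was. Among the 3191 genes called lower, the median log2 difference was -0.89, and 53.8% had fallen further than Brdt.

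In isolated spermatocytes, Brdt levels were 64.8, 48.8 and 85.2 in Het and 34.9, 34.3 and 36.8 in KO. Again no KO library reached the lowest Het library. Het and KO did not overlap, in either direction, for 52.4% of all genes there. The log2 difference was -0.86 ± 0.19 (SE), with an adjusted p of 0.0124 by limma. Of all genes tested 34.9% were called and 25.6% were called lower, and Brdt was the 1 BET gene among them. Het replicate 3 was the highest library for Brdt and Het replicate 2 the lowest of the Het group.

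The summed level of the pachytene markers was lower in every KO library than in every Het library of its set, as Brdt was at P18. It was 178 to 226 in Het and 89.3 to 133 in KO at P14, where 14 of the 15 were listed. With all 15 it was 971 to 1931 in Het and 325 to 330 in KO in P18 testis, and 1820 to 3770 in Het and 325 to 377 in KO in spermatocytes. In both P18 sets the Het libraries stood in the same order for this sum as for Brdt, with Het replicate 1 highest in testis and Het replicate 3 highest in spermatocytes. Brd2 and Brd3 shared that order in Het spermatocytes, though not in P18 Het testis. At P14 the orders differed, with Het replicate 1 highest for the sum and Het replicate 3 highest for Brdt. Between KO testis and KO spermatocytes, on a scale common to both, the sum was 329 to 334 and 338 to 411, while Brdt was at 21.4 and 37.5. Spermatogonia markers summed to 239 to 296 in Het and 315 to 352 in KO in P18 testis, and to 329.8 to 431 in Het and 541 to 633 in KO in spermatocytes. Macrophage markers summed to 53.5 to 64.1 in Het and 81.7 to 89.8 in KO in P18 testis. The part of these marker changes in the Brdt difference was not tested.

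**Figure D1:**
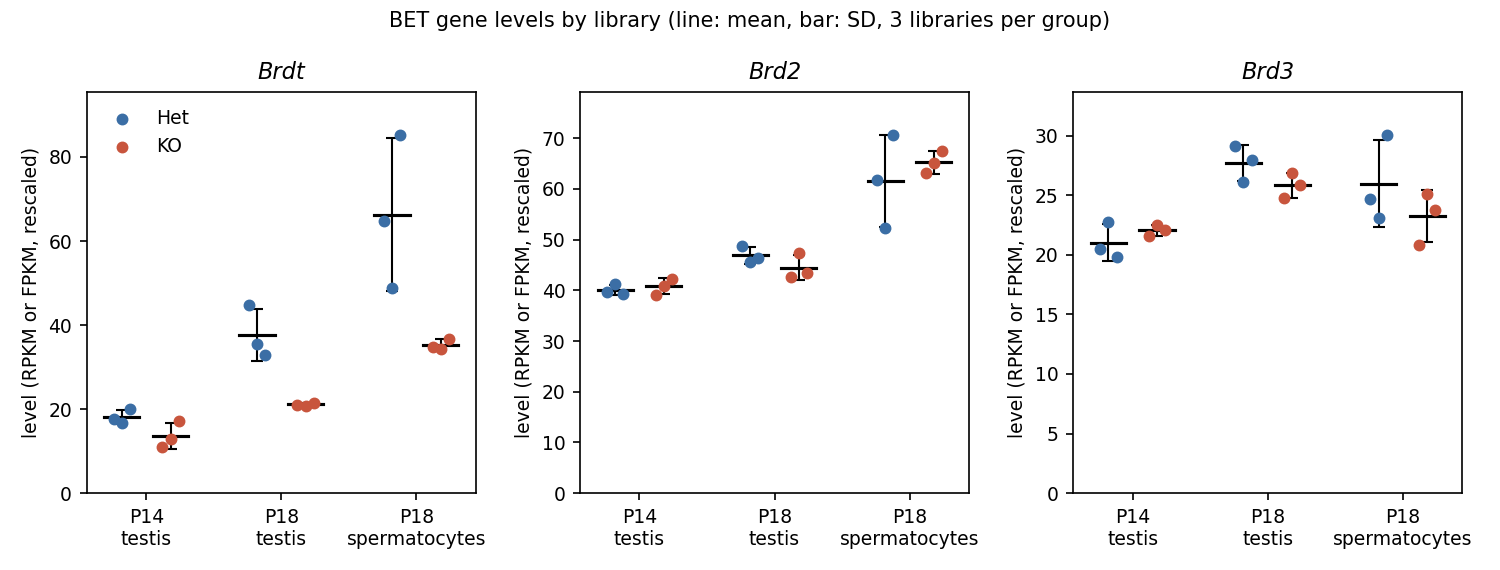
Levels of Brdt, Brd2 and Brd3 (rescaled RPKM or FPKM, linear axis from 0) in each of the 18 libraries, with Het in blue, KO in red, a line for the mean and a bar for the SD of 3 libraries. Brdt in KO lay below every Het library in P18 testis (20.8 to 21.5 against 32.9 to 44.7) and in spermatocytes (34.3 to 36.8 against 48.8 to 85.2), whereas Het and KO libraries overlapped for Brd2 and Brd3 in all 3 panels.

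Brd2, a broadly expressed member known to bind acetylated histone H4 and to act with E2F proteins, had levels of 39.6, 41.2 and 39.3 in P14 Het and 39.1, 40.9 and 42.3 in P14 KO. In P18 testis it had 48.7, 45.7 and 46.3 in Het and 42.6, 47.3 and 43.5 in KO. The groups overlapped at both ages. The log2 differences were 0.03 ± 0.05 (adjusted p = 0.927) at P14 and -0.08 ± 0.06 (adjusted p = 0.394) at P18, both by limma.

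In spermatocytes the Brd2 comparison depended on the scaling of the libraries. After rescaling, Brd2 was 61.7, 52.3 and 70.6 in Het and 63.0, 65.1 and 67.5 in KO, with a log2 difference of 0.09 ± 0.12 (adjusted p = 0.592). As deposited, it was 55.7, 52.8 and 60.2 in Het and 68.2, 71.0 and 73.7 in KO, with no overlap, a log2 difference of 0.33 and an adjusted p of 0.0131. On the deposited scale the median of all genes was also higher in KO, by 0.17. Of all genes, 3986 were called higher and 3351 lower on that scale, against 1482 and 4065 after rescaling. The share of genes without overlap was not computed for deposited values. Part of the Brd2 exons is shared with another gene: 360 exon bases overlap H2-DMa, an MHC class II gene on the opposite strand, and 405 overlap the antisense transcript CR974462.3, so that 7.81% of its 50-base words occur in these genes. The strand setting of the counting is not given in the sources used here. H2-DMa itself was at 3.91 to 4.81 in Het and 6.45 to 6.51 in KO spermatocytes, called higher with a log2 difference of 0.50 (adjusted p = 0.0180), a call lost in 3 of 6 fits that each left out 1 library. The part of these reads in the Brd2 level was not tested.

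Brd3, the other broadly expressed member and known as a partner of acetylated GATA1 in blood cells, had levels of 20.5, 22.7 and 19.8 in P14 Het and 21.6, 22.5 and 22.1 in P14 KO. In P18 testis it had 29.1, 26.1 and 27.98 in Het and 24.8, 26.9 and 25.8 in KO. In spermatocytes it had 24.7, 23.1 and 30.1 in Het and 20.8, 25.1 and 23.8 in KO. Het and KO overlapped in each set. The log2 differences were 0.07 ± 0.06 (adjusted p = 0.797), -0.10 ± 0.06 (adjusted p = 0.281) and -0.15 ± 0.13 (adjusted p = 0.398) by limma. In spermatocytes the sign of the Brd3 difference changed without rescaling, to 0.086. Brd3 shares 1 exon base with the microRNA gene Mir7578 and none of its 50-base words with another gene, and the same was true of the Brdt words.

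A ratio taken within a library needs no scaling between libraries. Brdt made up 23.7% ± 2.36 (SD, n = 3) of the summed level of the 3 genes in P14 Het testis and 18.4% ± 3.02 in P14 KO. In P18 testis its share was 33.4% ± 2.92 in Het and 23.1% ± 1.05 in KO. In spermatocytes it was 42.7% ± 3.277 in Het and 28.5% ± 0.933 in KO. Het and KO shares overlapped only at P14, where 1 KO library reached 21.8% and the lowest Het library stood at 21.5%. By level alone, 52.4% of all genes in the spermatocyte set and 48.3% in the P18 testis set were free of overlap too. Shares of other genes beside Brd2 and Brd3 were not computed, so separate shares do not set Brdt apart from other genes.

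The log2 ratio of Brdt to Brd2 was lower in KO by an average of -0.71 over the 3 sets, with an exact two-sided permutation p of 0.00025, the smallest that the 8000 arrangements within sets can give. The ratio of Brdt to Brd3 was lower by -0.63, with an exact permutation p of 0.0005. After Benjamini-Hochberg adjustment over the 12 ratio tests made, both p-values were 0.002. The tests over the 3 sets take the sets as independent. The labels do not say whether the P18 testis and spermatocyte libraries share animals. Within a single set, 3 libraries against 3 cannot give a p below 0.1 in an exact permutation test. The ratio to Brd2 differed by -0.44 at P14, by -0.73 in P18 testis and by -0.96 in spermatocytes, each with an exact permutation p of 0.1. Against Brd3 the differences were -0.48, -0.71 and -0.71, with exact permutation p-values of 0.2, 0.1 and 0.1. Against the mean of both paralogues the log2 ratio differed by -0.46, -0.72 and -0.83. The ratio thus differed in the same direction in each of the 3 sets. Only Brdt was put through these ratio tests, so how many other genes would give p-values as small was not tested.

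**Figure D2:**
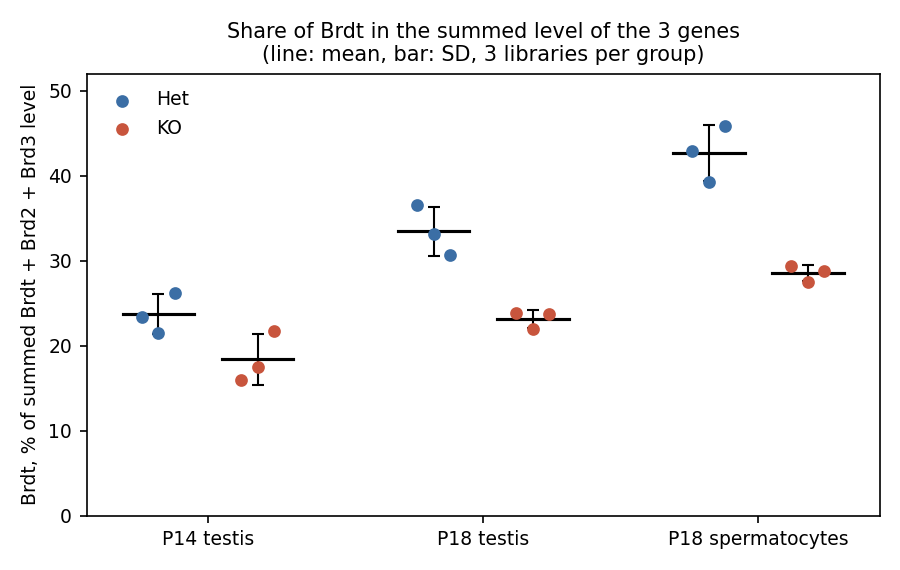
Share of Brdt in the summed level of Brdt, Brd2 and Brd3 (percent, axis from 0) in each library, Het in blue and KO in red, with the mean and SD of 3 libraries. The share was 42.7% in Het and 28.5% in KO spermatocytes, 33.4% and 23.1% in P18 testis, and 23.7% and 18.4% at P14, where the libraries of the 2 genotypes overlapped.

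The KO difference was set against age and fraction in fits of 12 libraries. For Brdt the KO difference was -0.44 ± 0.22 (log2) further down at P18 than at P14 testis, with an adjusted p of 0.275 by limma. The corresponding values were -0.14 ± 0.07 (adjusted p = 0.274) for Brd2 and -0.21 ± 0.08 (adjusted p = 0.146) for Brd3. Of all genes tested 7.67% were called for this interaction and none of the 3 was. Between spermatocytes and testis at P18 the KO difference changed by -0.08 ± 0.23 for Brdt (adjusted p = 0.910), by 0.14 ± 0.14 for Brd2 (adjusted p = 0.693) and by -0.08 ± 0.16 for Brd3 (adjusted p = 0.865), where 1.29% of genes were called. A difference in the size of the Brdt fall between ages or fractions was therefore not shown, and these p-values do not show that the falls were equal. The sign of the Brdt and Brd3 values between fractions changed with the scaling, to 0.098 for both as deposited, where the share of all calls that were higher moved from 4.7% to 20%, and from 4.1% to 19.3% for genotype by age.

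From P14 to P18 in Het testis, Brdt rose from 19.8 to 35.2, a log2 difference of 0.81 ± 0.15 (adjusted p = 0.00092). Brd3 rose from 23.0 to 25.9, by 0.17 ± 0.06 (adjusted p = 0.0227), and Brd2 was at 40.7 and 43.8, a difference of 0.10 ± 0.05 (adjusted p = 0.0996). Of all genes 61.6% were called with age in Het and 30.5% were higher at P18, and 2 of the 3 BET genes were. In KO testis Brdt was at 14.8 and 19.0, a log2 difference of 0.37 ± 0.15 that was not called (adjusted p = 0.0715). Brd2 and Brd3 differed by -0.04 and -0.04 there (adjusted p = 0.531 and 0.572), while 43.3% of genes were called and 18.5% were higher. Of the pachytene markers 10 of 10 tested were called higher with age in Het and 6 of 10 in KO, and their part in the Brdt values was not tested. The rise of Brdt in Het was called in each of 23 alternative fits. The Brd3 call was lost in the fit of all 18 libraries (adjusted p = 0.217) and without Het replicate 1 or 3 at P14 or Het replicate 1 at P18 (adjusted p = 0.0720, 0.0748 and 0.0744). Brdt in KO was called as deposited (0.678, adjusted p = 0.00256), as were Brd2 (0.269, adjusted p = 0.000743) and Brd3 (0.265, adjusted p = 0.00133) in KO, with the sign changed, and Brd2 in Het (0.282, adjusted p = 0.000436). Brdt in KO was also called without KO replicate 3 at P14 (0.539) and without Het replicate 1 at P18 (0.372). Without rescaling, the share of all calls that were higher at P18 moved from 49.5% to 65.3% in Het and from 42.7% to 77.4% in KO. As deposited, 6433 genes were called higher and 3414 lower in Het, and 7691 higher and 2248 lower in KO. The tables of the 2 ages were normalized separately and partly with other gene models, so age and these differences of processing cannot be told apart. For Brd2 the P14 values gave whole reads only with an exon length of 7285 bases, against 7826 at P18, and were put on the longer length for these comparisons. On the length of each age, Brd2 differed by -0.001 in Het and by -0.144 in KO (adjusted p = 0.0383).

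Spermatocytes had more Brdt and more Brd2 than whole testis of the same age, in both genotypes. Brdt was at 35.1 in testis and 66.2 in spermatocytes in Het (log2 difference 0.88 ± 0.16, adjusted p = 0.000863) and at 21.4 and 37.5 in KO (0.79 ± 0.16, adjusted p = 0.00142). Brd2 was at 43.8 and 61.4 in Het (0.47 ± 0.10, adjusted p = 0.00207) and at 45.0 and 69.2 in KO (0.62 ± 0.10, adjusted p = 0.000292). Brd3 was at 25.9 in both fractions in Het, a log2 difference of -0.01 ± 0.11 (adjusted p = 0.953), and at 26.1 and 24.7 in KO, a difference of -0.09 ± 0.11 (adjusted p = 0.522). Of all genes 58.8% were called between fractions in Het and 61.6% in KO, with 27.2% and 22.9% higher in spermatocytes, and 2 of the 3 BET genes were in each. The testis tables held FPKM and the spermatocyte tables RPKM values, so fraction and table cannot be told apart. The calls of Brdt and Brd2 held in all 22 alternative fits of either genotype, while the share of all calls that were higher in spermatocytes moved from 46.2% to 34.7% as deposited in Het and from 37.2% to 47.8% by median-of-ratios scaling in KO. The sign of the Brd3 value did not: by median-of-ratios scaling it was 0.101 in Het and 0.109 in KO.

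**Figure D3:**
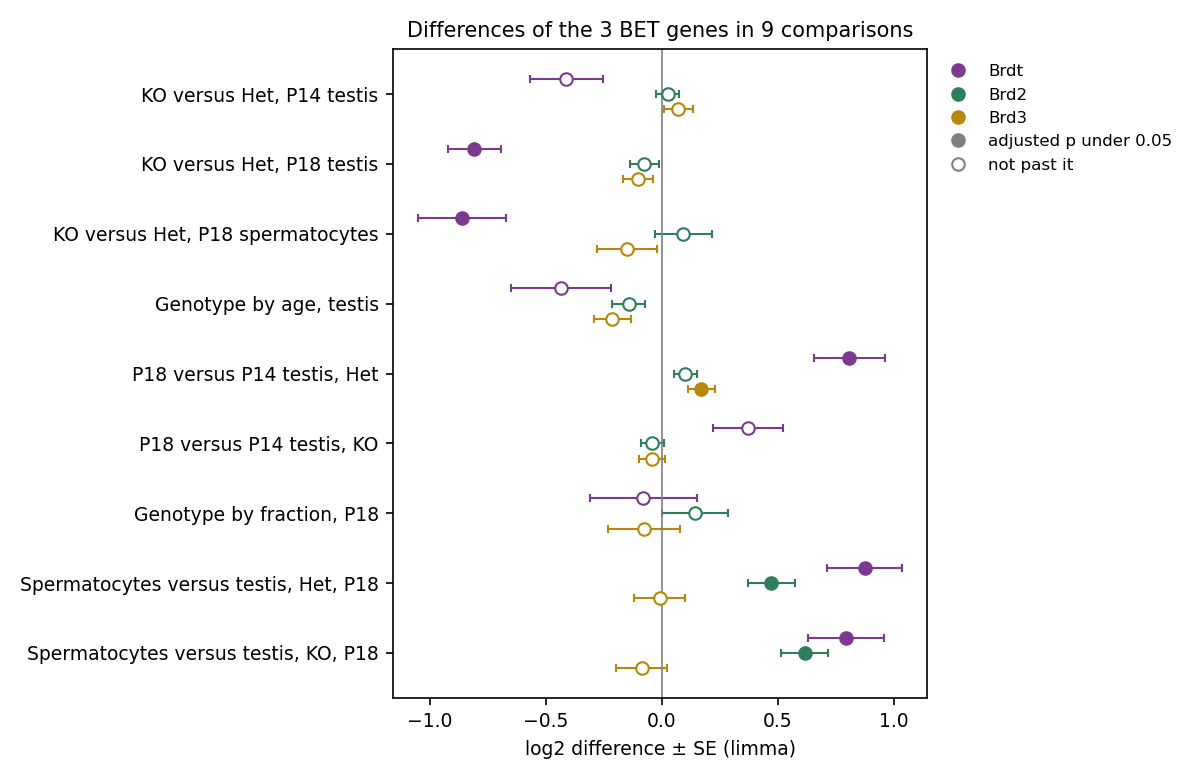
Log2 differences of Brdt, Brd2 and Brd3 with their SE in the 9 comparisons, filled where the adjusted p was under 0.05. Brdt was called in 5 of the 9 (lower in KO in both P18 sets, higher with age in Het, higher in spermatocytes in both genotypes), Brd2 in 2 and Brd3 in 1.

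On a scale common to the 18 libraries, the Brdt means ran from P14 KO (14.8 ± 3.27, SD, n = 3) through P18 testis KO (19.0 ± 0.339), P14 Het (19.5 ± 1.83), P18 testis Het (34.7 ± 6.30) and spermatocyte KO (38.0 ± 2.49) to spermatocyte Het (64.2 ± 21.3). Libraries of P18 testis KO and P14 Het overlapped, as did those of P18 testis Het and spermatocyte KO. The other neighbours in this order did not overlap. Brd2 means ran from 40.0 ± 2.15 in P18 testis KO, 40.2 ± 1.05 in P14 Het, 41.3 ± 1.3 in P14 KO and 43.1 ± 2.09 in P18 testis Het to 59.4 ± 12.1 in Het and 70.1 ± 4.15 in KO spermatocytes. The 4 testis groups overlapped with their neighbours, and so did the 2 spermatocyte groups, so the single gap in this order lay between testis and spermatocytes. Brd3 means ran only from 22.7 ± 1.66 in P14 Het to 25.5 ± 1.62 in P18 testis Het, and each group overlapped with its neighbour. These levels cross tables that were normalized separately.

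Over the 18 libraries, log2 levels of Brdt correlated with those of Brd2 with a Pearson r of 0.757 and with those of Brd3 with an r of 0.447, and Brd2 with Brd3 with an r of 0.499. Among the genes most like Brdt, of 8443 protein-coding genes tested in all 3 KO comparisons, were Kdm3a (r = 0.992), Spag5 (0.992), Boll (0.9905) and Ift81 (0.990). Kdm3a encodes a histone H3 lysine demethylase required in spermatids, Spag5 a spindle protein, Boll a meiotic RNA-binding protein and Ift81 a component of intraflagellar transport. Zfp541 had an r of 0.937 with Brdt and stood at rank 517. The genes most like Brd2 were Snrnp40, Gm21992, Lsm14b, Rev1 and Supt6 (r from 0.9823 to 0.9885). Those most like Brd3 were less close: Txndc12 (0.915), Mthfd2 (0.813), Slc25a3 (0.810), Per1 (0.801) and Ppp2cb (0.789). These values describe 18 libraries in 6 groups that share ages, genotypes and fractions. On values as deposited, 4 of the 5 genes most like Brdt stayed among the closest 5, against 2 for Brd2 and 1 for Brd3.

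These genes that resembled Brdt over all libraries were also lower in KO at P18. Log2 differences in P18 testis were -0.71 for Kdm3a, -1.01 for Spag5, -1.01 for Boll and -0.52 for Ift81, and in spermatocytes -0.86, -0.82, -1.09 and -0.57, all called by limma. Ift81 lost the call in spermatocytes in 3 of 6 fits that left out 1 library and with no filter on low values. These differences enter the correlation that chose the genes and are given as a description.

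The 4 lists of related genes held other bromodomain genes, histone acetyltransferases, which write the mark that BET proteins read, elongation genes, and other known BET-binding partners. The elongation genes, called the P-TEFb list, were those of the elongation factor P-TEFb with its 7SK and super elongation complexes. That list also held Ccnk, Cdk12, Cdk13, Supt4a, Supt5, Nelfa, Nelfb, Nelfcd and Nelfe. At P14 none of the tested members of the 4 lists (29, 15, 25 and 16 genes) was called, where 0.186% of all genes were. At P18 the shares of all genes called higher and lower were 6.59% and 17.0% in testis and 9.32% and 25.6% in spermatocytes. Among the other bromodomain genes, 28 were tested in P18 testis, with 3 called higher and 7 lower and a median log2 difference of -0.03, beside 0.04 over all genes. In spermatocytes 3 were called higher and 8 lower of 28 tested, with a median of -0.02 beside -0.05. Baz1a, a subunit of ISWI chromatin remodellers, fell from 29.97 to 14.7 in testis and from 52.3 to 21.3 in spermatocytes (log2 differences -0.97 and -1.24). Kmt2a, a histone H3 lysine 4 methyltransferase, rose by 0.51 and 0.63, and Smarca2, an ATPase of SWI/SNF remodellers, fell by 1.96 in spermatocytes, from 11.5 to 2.44. The largest other calls in testis were Trim24 (-0.50) and Baz2a (-0.46) among the lower genes and Taf1 (0.32) and Atad2 (0.31) among the higher. In spermatocytes they were Baz2b (-0.76) among the lower genes and Cecr2 (0.43) and Baz1b (0.38) among the higher.

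Beside the same shares of all genes (6.59% higher and 17.0% lower in testis, 9.32% and 25.6% in spermatocytes), of 15 histone acetyltransferase genes 1 was called higher and 2 lower in P18 testis (median 0.04, beside 0.04 over all genes), and 3 higher and 3 lower in spermatocytes (median 0.15, beside -0.05). Kat7 and Kat5, catalytic subunits of the HBO1 and TIP60 complexes, fell by 0.75 and 0.48 in testis and by 0.99 and 0.84 in spermatocytes, where Kat8, the MOF acetyltransferase, fell by 0.99. Ncoa1 rose by 0.25 in testis, and Cdyl, Hat1 and Crebbp rose by 0.68, 0.41 and 0.39 in spermatocytes. Of 25 genes of the P-TEFb list, 0 were called higher and 3 lower in P18 testis (median -0.01), and 1 higher and 2 lower in spermatocytes (median 0.04). Ccnk, a cyclin known as the partner of the kinases CDK12 and CDK13, fell from 64.1 to 27.7 in testis and from 113 to 47.4 in spermatocytes. Larp7, which binds 7SK RNA, fell from 101 to 52.9 and from 119 to 63.8. Mllt1 fell by 0.38 in testis, and Hexim1, an inhibitor of P-TEFb, rose by 0.45 in spermatocytes. Cdk9, the kinase of P-TEFb, chosen here after its values were seen, differed by 0.17 ± 0.06 and 0.08 ± 0.11 and was not called. Of the BET-binding partners, 3 of 16 were called higher and 0 lower in P18 testis (E2f1 by 0.56, Bicra by 0.40 and Med12 by 0.34; median 0.12), and 2 higher and 2 lower of 15 in spermatocytes (E2f1 by 0.67, E2f2 by 0.58, Jmjd6 by -0.41 and Rela by -0.39; median 0.06). Of the named list genes, 4 of 15 in testis (Kmt2a, Kat7, Ccnk and Larp7) and 10 of 19 in spermatocytes (those 4 with Smarca2, Baz1a, Kat8, Kat5, Cdyl and E2f1) kept the call in every alternative fit that gave a value.

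**Figure D4:**
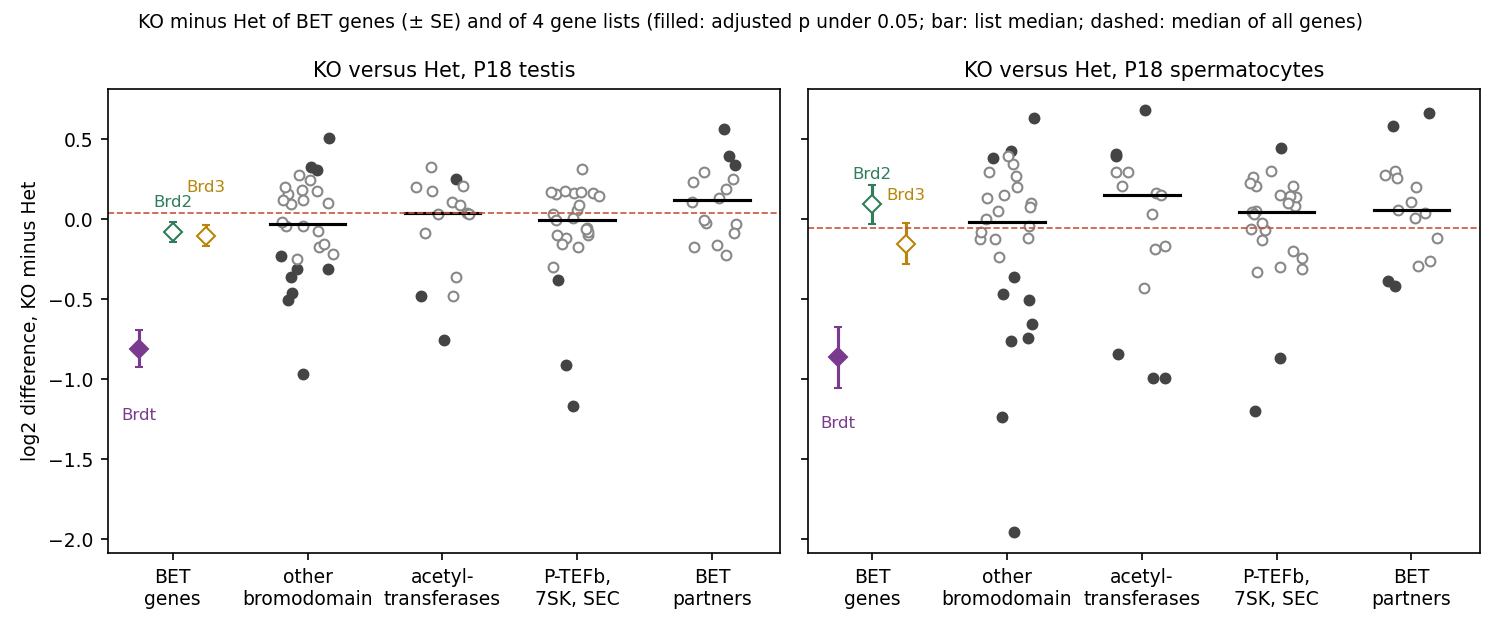
KO minus Het log2 differences in P18 testis and spermatocytes for the 3 BET genes (diamonds with SE) and for the members of 4 lists (circles, filled where the adjusted p was under 0.05), with list medians as bars and the median of all genes as a dashed line. Brdt lay at -0.81 and -0.86, and all list medians lay between -0.03 and 0.15.

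The KO difference of Brdt was recomputed in 16 alternative fits of each set. In P18 testis it ranged from -0.90 to -0.68 (highest adjusted p = 0.0376) and in spermatocytes from -1.06 to -0.62 (highest adjusted p = 0.0477), and it was called in all 16 in both. At P14 it ranged from -0.58 to -0.27 and was called in 0 of 16. Brd2 was called in 1 of 16 in spermatocytes, on values as deposited, and in 0 of 16 in each testis set. Brd3 was called in 0 of 16 in each of the 3 sets.

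**Figure D5:**
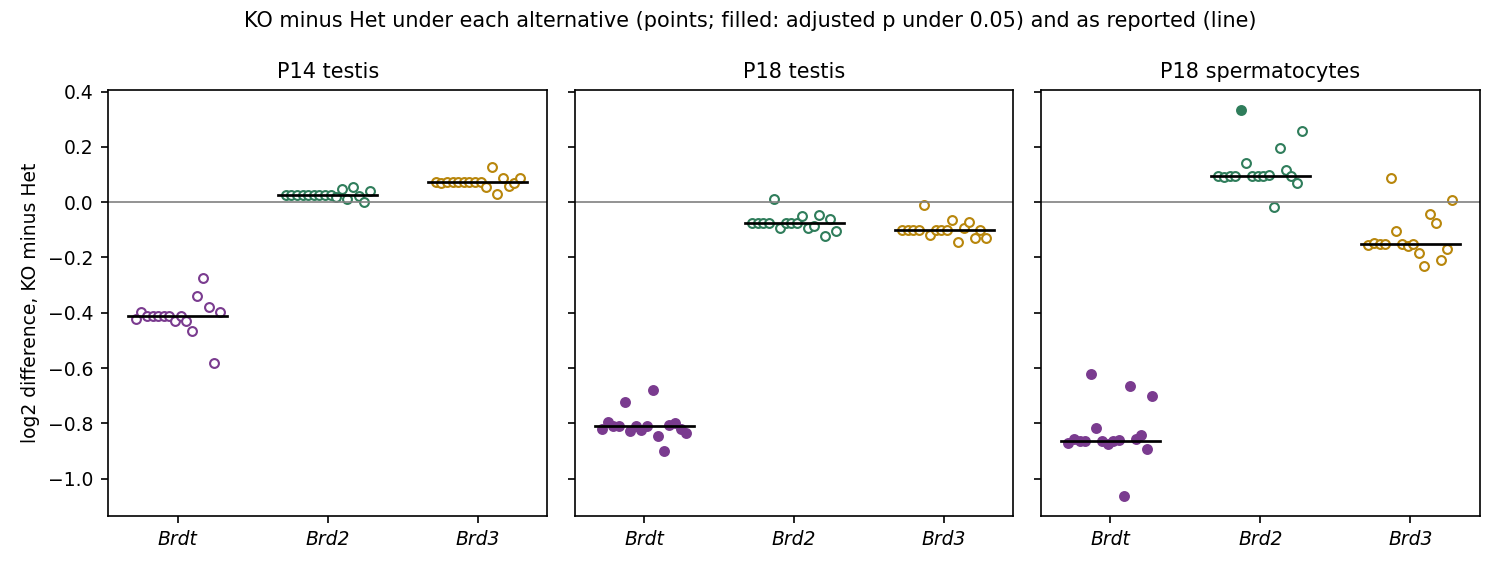
KO minus Het log2 difference of each BET gene as reported (line) and in 16 alternative fits (points, filled where the adjusted p was under 0.05), by set. All Brdt points at P18 lie between -1.06 and -0.62 and are filled, those at P14 are open, and the 1 filled Brd2 point in spermatocytes (0.334) is the fit on values as deposited.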

How the data were processed

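Poly(A) RNA of 18 mouse libraries, 3 in each of 6 groups, was measured by RNA-seq. The authors deposited 1 table per library with a gene symbol and an RPKM value (P14 testis, P18 spermatocytes) or an FPKM value (P18 testis). The submitters' processing notes name the build GRCm38 and, with no role or order, the aligner STAR 2.6.1a, the base-calling software CASAVA 1.9, the package edgeR 3.28.1 and featureCounts. The 3 members and all gene lists were chosen with earlier results of these data known.

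Whole reads were read back from the steps of the values with merged exon lengths of the GRCm38 annotation (within 0.02 reads, for 92.9% to 99.1% of values of at most 50 reads), and gave the totals and the TMM scaling factors (trimmed mean of M values, trims of 30% and 5%). A value of 1 read on 1 kb was 0.0473 to 0.108. A gene entered a fit where 3 or more libraries reached a value of 1. The test was that of limma 3.58.1 (R 4.3.3) on log2 of the rescaled value plus 0.5, with trend and robust moderation, so that folds of low genes are understated. Each KO comparison had its own 6 libraries, and ages and fractions had 12. Ratios within libraries were tested by exact two-sided permutation within sets. Python 3.11.15 with pandas 2.3.3, numpy 2.4.6, scipy 1.17.1 and matplotlib 3.10.9 did the rest.

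Named genes were the members, Zfp541, genes sharing exon bases with a member, up to 3 rises and 3 falls past the threshold per list and KO comparison, and the 5 protein-coding genes most correlated with each member; not all are printed, and 1 of the genes correlated with Brdt is not reported here. Alternatives were the pseudocount, the filter, the scaling, the moderation, voom on the recovered reads, a fit of all 18 libraries, the replicate number as a block, leaving out each library and, added later, Brd2 per length of its own model at each age and the settings of the correlations. The fits were tested on simulated data.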

Additional observations from a re-analysis of the deposited data

Results flagged for a closer look

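No BET gene was called for a change of its KO difference between ages or fractions by the limma test of the interaction, which does not show that the differences were equal. Among the list genes named beside them, 4 were called, out of all named genes tested for both interactions. These 4 were named through their P18 falls past the threshold, and the interactions use those same P18 values. A deeper fall at P18 or in spermatocytes was thus favoured by the choice, and the 4 calls are given as a description. In testis the KO difference was further down at P18 than at P14 for Baz1a (log2 -0.945, adjusted p = 0.0276), Larp7 (-0.721, adjusted p = 0.0215) and Kat7 (-0.706, adjusted p = 0.0221), where 7.67% of all genes were called. Each of these 3 lost the call with the replicate number as a block (adjusted p = 0.0501, 0.0504 and 0.0520) and in the fit of all 18 libraries. Of 12 fits that each left out 1 library, the call was lost in 10 for Baz1a, 7 for Larp7 and 5 for Kat7. The KO difference of Smarca2 was further down in spermatocytes than in P18 testis (-1.779, adjusted p = 0.0456), where 1.29% of genes were called, and that call was lost in 9 of 12 fits that each left out 1 library.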

How the results depend on the processing

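Over the members, the counts of calls and the ratio, 343 of 379 alternative values were taken as unchanged, leave-one-out fits aside. For the members and the ratio this meant the same direction and side of the threshold. Counts of calls were judged by the size of their change instead. Leaving out 1 library at a time, the Brdt ratio to the mean of both paralogues ranged from -0.723 to -0.633.

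On values as deposited, the KO difference of Brd2 was 0.013 in P18 testis and 0.334 in spermatocytes, and that of Brd3 in spermatocytes was 0.086. The age difference was then 0.282 for Brd2 in Het, and 0.678 for Brdt, 0.269 for Brd2 and 0.265 for Brd3 in KO, all 4 past the threshold, as was Brd2 in KO spermatocytes. Calls over all genes on that scale were 6433 higher and 3414 lower with age in Het, and 7691 and 2248 in KO. For KO against Het in spermatocytes they were 3986 higher and 3351 lower. Genotype by fraction was 0.098 for both Brdt and Brd3. By median-of-ratios scaling genotype by fraction was 0.005 for Brdt and 0.008 for Brd3, with 86 genes called, and Brd3 between fractions was 0.101 in Het and 0.109 in KO. In 1 fit of all 18 libraries Brd3 was 0.009 (KO, spermatocytes), 0.167 (age, Het), 0.138 (genotype by fraction) and 0.096 (fraction, KO), Brdt was 0.135 (genotype by fraction), and 414 genes were called for genotype by age and 743 by fraction. With Brd2 per length of its own model, its age difference was -0.001 in Het and -0.144 in KO. Beyond the scaling itself, the cause was not tested.

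At P14, 33 genes were called, against 17 with a pseudocount of 0.1, 9 with no filter, 5 with a stricter filter and 178 by voom, which called 656 for genotype by age against 1232. Genotype by fraction, with 258 calls, had 391 and 170 with pseudocounts of 0.1 and 1 and 92 with no filter. The stricter filter gave 8038 calls between fractions in KO against 12271, with fewer genes tested.

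Same-numbered Het and KO libraries had correlations of their deviations of 0.0823 to 0.103 at P14, -0.0305 to 0.0265 in P18 testis and 0.0530 to 0.232 in spermatocytes. Different-numbered libraries had -0.0966 to 0.0228, -0.0537 to 0.0649 and -0.156 to 0.0285. Same-numbered values were thus all higher at P14 and in spermatocytes, but not in P18 testis. The main fits did not take the numbers as pairs, and these values do not settle whether they are. With the replicate block, 3 genes were called at P14, 2893 in P18 testis against 4429, 816 for genotype by age and 87 by fraction. The Brdt difference was -0.809 (adjusted p = 0.0235) and -0.863 (adjusted p = 0.00958) at P18 with the block, and no call of a BET gene changed. At P14 it was -0.412 with the block, with an SE of 0.093 and an adjusted p of 0.253 by limma.

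Leaving out 1 library at a time, with fewer samples in each fit, gave 0 to 135 calls at P14, 1234 to 4735 in P18 testis, 3326 to 5139 in spermatocytes, 226 to 1778 for genotype by age and 20 to 596 by fraction. The most at P14 came without KO replicate 3 and the fewest without Het replicate 1. The fewest in P18 testis, for genotype by age and for genotype by fraction came without Het replicate 2 of P18 testis, and the most by fraction without Het replicate 2 of spermatocytes. Brd2 ranged from -0.001 to 0.054 in KO at P14 and from -0.018 to 0.197 in KO spermatocytes, Brd3 from 0.138 to 0.219 with age in Het, Brdt from 0.237 to 0.539 with age in KO, and between fractions Brd3 from -0.132 to 0.054 in Het and -0.135 to 0.001 in KO. Genotype by fraction ranged from -0.265 to 0.134 for Brdt and from -0.140 to 0.046 for Brd3.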
